A study of Homo sapiens with 15 samples.

Results

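Isolated FOXA1 peaks are places on the autosomes of 22Rv1 cells, an established line from a human prostate carcinoma, where the peak list of DMSO-treated parental cells held a FOXA1 peak with no other peak of that list within 100 kb on either side. The gap was counted from the end of one peak to the start of the next. Of the 29506 autosomal peaks in the list, 3064 met the rule, or 10.4% (Wilson 95% interval 10.0 to 10.7%). The whole parental DMSO list held 30557 peaks. Members were chosen by the peak positions of this list alone, so their number, score, width, chromosome and gap are given below as a description and were not tested.

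The study profiled FOXA1 by chromatin immunoprecipitation and sequencing (ChIP-seq), with 12 FOXA1 libraries and 3 input libraries. Input files were not analysed here. Parental cells received DMSO at 0.1%, one of the stereoprobes WX-02-23 and WX-02-43 at 20 µM, or the splicing modulator PladB, for 3 h, or were given siRNA to FOXA1 (siFOXA1) or siControl, for which the labels give no dose or time. The labels give 100 nM as the PladB dose of the parental sample in one place and 10 nM for parental cells in another. The engineered lines all expressed the Y36C form of PHF5A, a splicing factor subunit, and carried a doxycycline-inducible FOXA1 that was wild type (WT line) or had the C258A change (C258A line). Each line was profiled in 3 states: DMSO without doxycycline (noDox), DMSO after induction, and WX-02-23 at 20 µM after induction. The endogenous FOXA1 gene was present in both lines, and the antibody is described only as one against FOXA1. With 1 library for each group, differences between conditions lack replicates and were described without tests or p-values.

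FOXA1 is a forkhead transcription factor of the pioneer class: it can bind its sites on DNA wrapped around nucleosomes and help to open them for other factors. In prostate epithelium it marks enhancers together with the androgen receptor and other lineage factors, and such enhancers often lie in clusters around the genes they control. A peak that stands alone is the opposite arrangement, a single site of FOXA1 enrichment in an otherwise empty stretch of the same list.

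Among the autosomal DMSO peaks, 15096 (51.2%) had another peak within 100 kb on both sides and 11346 (38.5%) on 1 side, with 3064 on neither. For the isolated peaks the gap to the nearer neighbour had a median of 141 kb, with quartiles of 116 and 188 kb. For the others the median was 18.8 kb. Of the isolated peaks, 653 (21.3%) were more than 200 kb from any other peak and 41 more than 500 kb, and 16 were the first or last peak of their chromosome. Isolation was thus mostly a matter of moderate distances, and few members stood in true deserts of FOXA1 enrichment.

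At the threshold itself, the 3 members with the smallest gaps had nearer neighbours at 100001, 100001 and 100033 bp. The first 2 of these, on chromosome 4, were each other's neighbour and had scores of 744 and 145. The 3 peaks that just missed the rule had gaps of 99999, 99966 and 99962 bp and scores of 322, 354 and 313. Members and non-members next to the threshold were therefore ordinary peaks of the list.

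**Figure D1:**
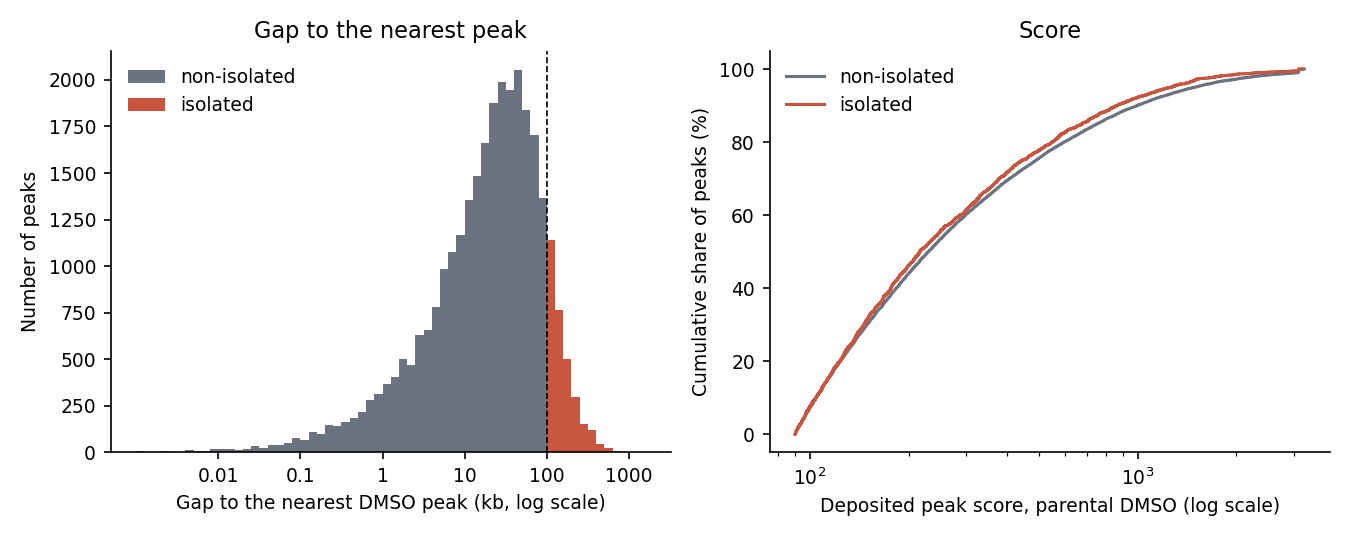
Left, number of autosomal parental DMSO peaks by gap to the nearest DMSO peak in kb on a log scale, with isolated peaks in orange and the dashed line at 100 kb. Right, cumulative share of isolated and non-isolated peaks by deposited score on a log scale. The isolated peaks form the upper tail of 1 continuous gap distribution, and their score curve lies slightly to the left of the other.

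Peak score is the authors' value for each peak, as deposited, and its definition is not stated, so it served only to rank peaks within a list. Isolated peaks had a median DMSO score of 217, with quartiles of 135 and 445 and a highest value of 3171. Non-isolated peaks had a median of 230.1, with quartiles of 136 and 490.1. By score decile, the isolated share was 8.37% in the highest decile and between 9.32% and 11.5% in the others. Isolated peaks thus covered the whole range of scores and were somewhat rarer among the strongest peaks. A score of 3100 or more was reached by 17 isolated peaks.

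Isolated peaks were also narrower. Their median width was 645 bp, against 690 bp for non-isolated peaks and 681 bp for non-isolated peaks weighted to the same distribution of scores. The narrowness recurred at the same places in other libraries, which the rule did not use. Partner peaks of isolated sites averaged 805 bp with siControl, against 876 bp for score-matched sites, a difference of -71.3 bp (95% counting interval -80.2 to -62.4). With PladB they averaged 837 against 929.8 bp, with WX-02-43 655 against 701 bp and with WX-02-23 683 against 733 bp. In the engineered lines the difference was smaller in size. It lay between -34.0 bp in WT cells with WX-02-23 and 5.61 bp in C258A cells with DMSO. The interval included 0 in C258A cells with DMSO (-8.73 to 19.9) and with WX-02-23 (-10.5 bp, -23.4 to 2.30). With siFOXA1 the difference over 185 sites was -81.9 bp (-192 to 28.5).

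Members were found on every autosome, from 37 on chromosome 22 to 320 on chromosome 2. The share of a chromosome's peaks that were isolated was lowest on chromosome 7, with 128 of 2140 peaks (5.98%, 5.05 to 7.07%), followed by chromosome 12 (7.00%), chromosome 1 (7.04%) and chromosome 19 (7.75%). It was highest on chromosome 21, with 55 of 282 (19.5%, 15.3 to 24.5%), then chromosome 16 (16.0%), and chromosome 2 had 14.4%. The lowest shares were on chromosomes dense in peaks and the highest on sparse ones: between its first and last peak, chromosome 12 held 14.1 peaks per Mb and chromosome 7 held 13.5, while chromosome 21 held 7.29 and chromosome 16 held 7.48. Chromosome 2, at 9.15 peaks per Mb, had a larger isolated share than chromosome 22, at 9.85, or chromosome 9, at 9.27 with 10.9% isolated. Counted per Mb the spread was narrower, from 0.805 isolated peaks per Mb on chromosome 7 to 1.42 on chromosome 21. Chromosome copy number in this line was not analysed here.

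**Figure D2:**
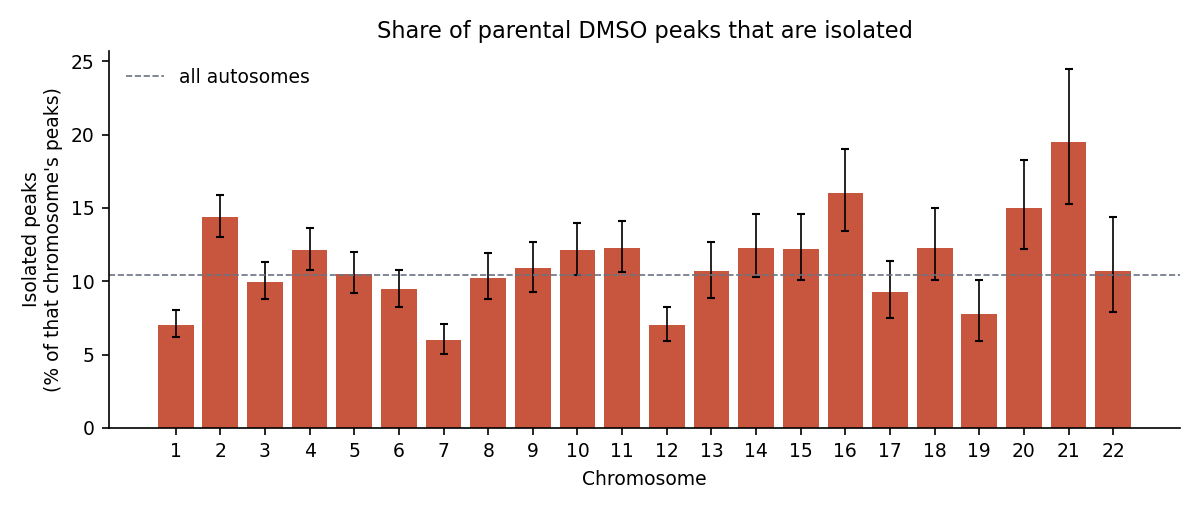
Isolated peaks as a percentage of the parental DMSO peaks on each autosome, with Wilson 95% intervals, and the share over all autosomes as a dashed line at 10.4%. Chromosomes 7, 12 and 1 lie lowest and chromosome 21 highest.

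The strongest isolated peak was chr18:64541789-64543021 (hg19, counted from 1). Its DMSO score was 3171, rank 12 among all autosomal peaks, and its gaps were 149 and 143 kb. It was called in each other list except siFOXA1. Its scores were 2891 with siControl, 2915 with PladB, 1296 with WX-02-43 and 1212 with WX-02-23. In WT cells they were 1239 before induction, 1405 after it in DMSO and 1577 with WX-02-23, and in C258A cells 1415, 691 and 930. Within the 10 lists its percentile by score was between 96.2 and 99.4. The next was at chr21:41178997-41180518 with a score of 3126.

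Exactly 3100 was the score of 15 members, which tied for the next rank. The first 3 of these in genome order lay at chr2:35686132-35687699 and chr2:237732946-237734436, and at chr4:79945771-79947362. These 5 were called in 10 of the 11 other lists and missing only with siFOXA1, whereas other members with the same score of 3100 were called in all 11. The members farthest from any neighbour were weaker. The most remote, at chr18:6775582-6776288, had its nearer neighbour 1090.1 kb away and a score of 288, and was called with siControl, PladB and WX-02-43 and in C258A cells without doxycycline. The next 2, at chr10:131377486-131378227 and at chr12:129427441-129428339, had scores of 396 and 429 and were called in 5 and 4 other lists.

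A member counted as called in another list when a peak of that list overlapped it by at least 1 bp. The share called was compared with that of non-isolated peaks weighted to the score distribution of the isolated ones in 20 score bins (score-matched below). Shares given by score quintile were not weighted by score within the quintile. The intervals reflect counting error alone, as if each peak were independent of the next. Depth is unknown, so more binding and a deeper library cannot be told apart in a longer list.

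In the parental lists apart from the knockdown, isolated peaks were called as often as score-matched non-isolated peaks or slightly more often. With siControl 2718 isolated peaks were called, or 88.7% (87.5 to 89.8%), where 88.1% of all autosomal DMSO peaks were. The score-matched share was 87.7%, a difference of 1.04 points (-0.00262 to 2.08). With PladB 2715 were called (88.6%, 87.4 to 89.7%), against 88.3% of all autosomal peaks and 87.9% of score-matched ones, a difference of 0.740 points (-0.297 to 1.78). Both lists called 2578 (84.1%), 1.5 points above the score-matched share (0.371 to 2.63), and neither called 209. With a reciprocal overlap of 50% the differences were 2.13 points (1.04 to 3.22) with siControl and 2.50 (1.42 to 3.58) with PladB, so there the intervals lay above 0. A site that stood alone was thus called again in these libraries at least as often as others of its score.

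With the stereoprobes fewer members were called. With WX-02-43, 1693 were (55.3%, 53.5 to 57.0%), where 55.4% of all autosomal peaks were called, and the difference from score-matched peaks was 1.31 points (-0.0199 to 2.65). With WX-02-23, 1417 were (46.2%, 44.5 to 48.0%), where 47.2% of all were, and the difference was 0.532 points (-0.957 to 2.02). All 4 intervals in these parental lists included 0, and none reached beyond 2.65 points in either direction. With the lists at equal length the intervals lay above 0 for WX-02-43 (1.73 points, 0.722 to 2.73) and WX-02-23 (1.90 points, 0.628 to 3.17). Calls followed score: in the highest score quintile 93.4% of isolated peaks were called with WX-02-23 and 99.8% with WX-02-43, and in the lowest score quintile 10.5% with each. In that lowest score quintile the non-isolated share with WX-02-23 was 14.4% (13.5 to 15.4%), above the isolated one (8.35 to 13.2%).

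At the same dose and time, the stereoprobes differed by -9.01 points over the isolated peaks, WX-02-23 minus WX-02-43, and by -8.24 points over all autosomal DMSO peaks. Both called 1193 of them, WX-02-43 alone 500, WX-02-23 alone 224, and neither 1147. The lists held 18228 and 17217 peaks, and with each other list except siFOXA1 reduced to its 8575 highest-scoring peaks the shares were 27.5% with WX-02-43 and 26.6% with WX-02-23. The gap between the compounds at isolated sites was thus close to that over all peaks, and smaller at equal length.

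Among the 1658 isolated peaks called with siControl, PladB and WX-02-43, 473 (28.5%, 26.4 to 30.7%) were missing with WX-02-23. The score-matched share was 30.9%, a difference of -2.36 points (-4.44 to -0.282). Among the 1373 called with siControl, PladB and WX-02-23, 188 (13.7%, 12 to 15.6%) were missing with WX-02-43, a difference of -2.12 points (-3.76 to -0.487). These small differences did not hold throughout: the interval included 0 in 5 of 11 alternatives for WX-02-23 alone (such as -1.78, -3.85 to 0.297, with gaps of up to 500 bp) and in 4 of 11 for WX-02-43 alone (such as -1.46, -3.58 to 0.672, at equal length). At equal list length the share missing with WX-02-23 alone was 21.5% (18.5 to 24.8%), and that missing with WX-02-43 alone was 6.31%.

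The strongest member missing with WX-02-23 alone was at chr16:65030159-65031288, with its nearer neighbour 359.7 kb away. Its score was 2223 with DMSO, 1899.5 with siControl, 2154 with PladB and 969 with WX-02-43. In WT cells it had 271 before induction and 474 after it in DMSO, and it was not called with WX-02-23. In C258A cells it had 322, 278 and 247, the last with WX-02-23. With WX-02-23 the site was thus not called in parental and WT cells and was called in C258A cells. The next 2, both on chromosome 2, chr2:147150159-147151393 (score 1436) and chr2:226335849-226337029 (score 1268), were still called with WX-02-23 in WT cells. The second of them was not called with WX-02-23 in C258A cells, so neither of the 2 showed the pattern. Absence with WX-02-23 in parental cells was how all 3 were picked.

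The strongest member missing with WX-02-43 alone was weaker. It lay at chr4:101700740-101701981 with a DMSO score of 891, and was called in all 6 engineered lists. The others, at chr3:82780237-82780925 and at chr2:18198460-18199123, had scores of 461 and 430.4. Of all members, 153 (4.99%) were called in no other list, against 5.20% of score-matched peaks, and their median score was 105. The 3 with the highest scores among them were at chr2:7779539-7780080 and chr2:25534024-25534934 and at chr4:107339098-107339668, with scores of 205, 196 and 184.

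**Figure D3:**
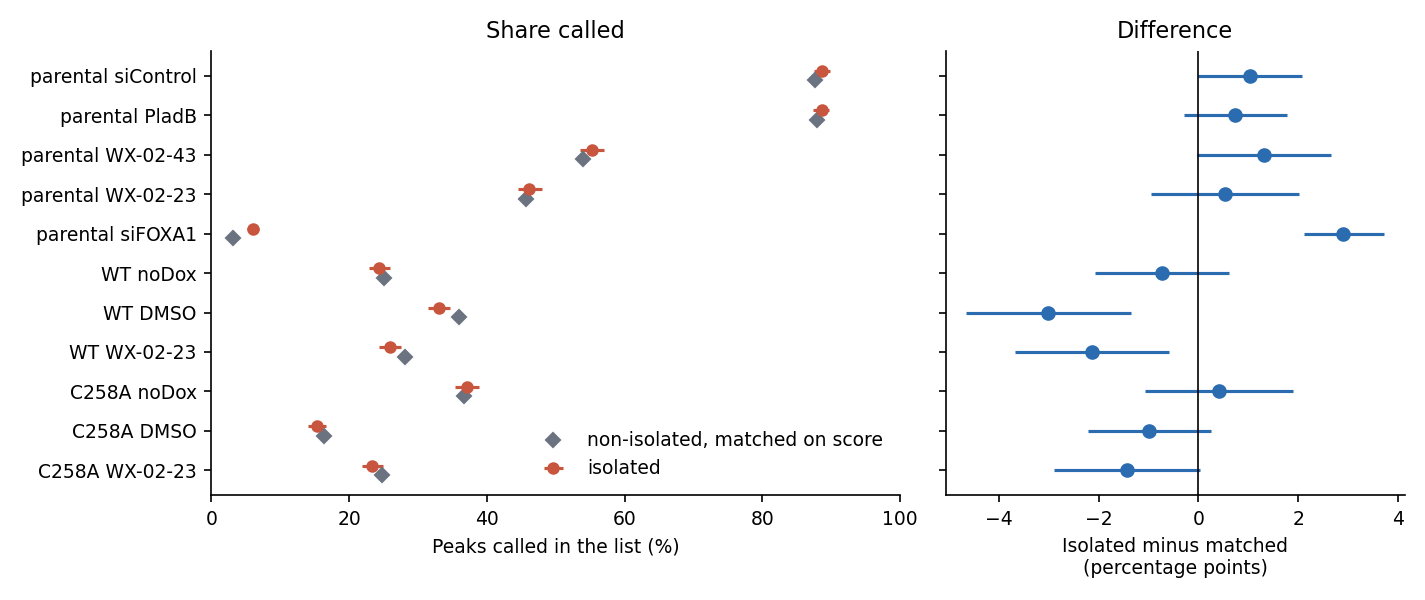
Left, percentage of isolated peaks called in each of the 11 other lists (orange, Wilson 95% intervals) and of non-isolated peaks matched on score (grey diamonds). Right, the difference in percentage points with its 95% counting interval. The difference is largest upward with siFOXA1, at 2.91 points, and largest downward in WT cells with doxycycline and DMSO, at -3.01 points.

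The knockdown list separated isolated peaks from the rest more than any other parental list. With siFOXA1, 185 isolated peaks were called, or 6.04% (5.25 to 6.94%), where 3.71% of all autosomal DMSO peaks were. The score-matched share was 3.12%, so isolated peaks were called 1.93 times as often, a difference of 2.91 points (2.11 to 3.72). The difference was above 0 on 19 of the 22 autosomes taken singly. It lay among the strong peaks: in the highest score quintile 135 of 544 isolated peaks (24.8%, 21.4 to 28.6%) were called with siFOXA1, against 657 of 5358 non-isolated ones (12.3%, 11.4 to 13.2%). In the lowest score quintile 2 of 617 were, or 0.324%, against 0.341% of non-isolated peaks. How much FOXA1 remained after the knockdown was not analysed here.

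The share called with siFOXA1 rose with the gap across the whole list, in classes of distance chosen after the data were seen. Weighted to the scores of all autosomal peaks, it was 1.92% (1.58 to 2.25%) for peaks with a neighbour within 5 kb, 2.86% from 5 to 20 kb and 4.0% from 20 to 50 kb. From 50 to 100 kb it was 5.15%, from 100 to 200 kb 6.22% (5.28 to 7.17%), and beyond 200 kb 7.37% (5.51 to 9.23%). By sides without a neighbour within 100 kb, it was 2.70% for none, 4.38% for 1 and 6.51% for both. No step stood out at 100 kb, and isolated peaks held the upper end of a gradient. The WX-02-23 share stayed between 46.8% and 49.8% over the same 6 classes.

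**Figure D4:**
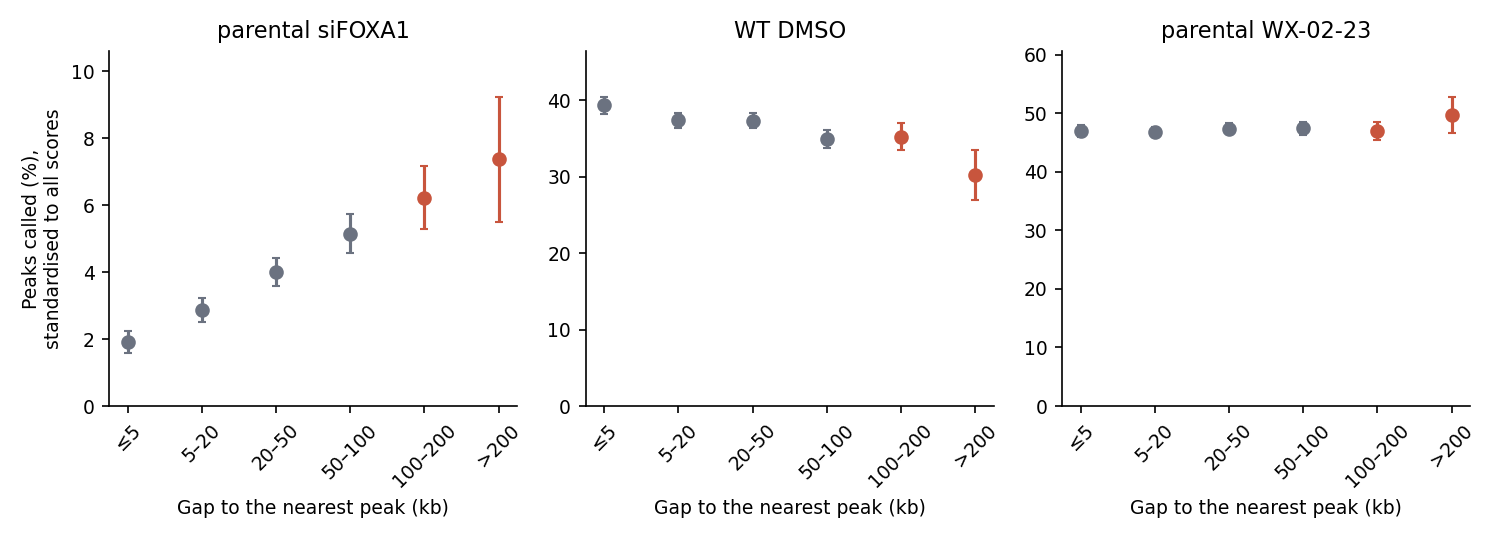
Percentage of autosomal parental DMSO peaks called with siFOXA1, in WT cells with doxycycline and DMSO, and in parental cells with WX-02-23, by gap to the nearest DMSO peak, weighted to the scores of all autosomal peaks, with 95% counting intervals. Orange points are the isolated peaks. The siFOXA1 share climbs from 1.92% to 7.37%, the WT share falls from 39.3% to 30.2%, and the WX-02-23 share stays level.

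The 185 isolated peaks that remained called with siFOXA1 were compared with the other isolated peaks of the same DMSO scores, a comparison added after the data were seen. Their median DMSO score was 855, and 70 of them (37.8%) were in the highest score decile. Of the 185, 184 were called with siControl (99.5%, against 99.2% of score-matched isolated peaks) and 184 with PladB (99.5% against 99.3%), so these lists showed no difference beyond counting error. With WX-02-43 181 were called (97.8%, 94.6 to 99.2%, against 94.4%), a difference of 3.42 points (2.19 to 4.64). The interval of this difference is too narrow, because score bins with 1 of these sites, or with all of them called, added no spread. With WX-02-23 183 were called, or 98.9% (96.1 to 99.7%), against 83.4% of score-matched isolated peaks, a difference of 15.5 points (12.8 to 18.3). That interval is too narrow for the same reason. Sites that kept a call through the knockdown thus also kept it under WX-02-23 more often than other members of the same score.

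In the engineered cells the same 185 sites were called less often than other isolated peaks of their score, most of all once FOXA1 was induced. In WT cells with doxycycline and DMSO 16 were called (8.65%, 5.39 to 13.6%), against 68.9% of score-matched isolated peaks, a difference of -60.2 points (-64.5 to -56.0). In C258A cells with doxycycline and DMSO 8 were (4.32%, 2.21 to 8.30%), against 43.8%. With doxycycline and WX-02-23 the counts were 11 in WT cells (5.95% against 56.2%) and 16 in C258A cells (8.65% against 56.4%). Without doxycycline they were called more often, 66 (35.7%) in WT and 107 (57.8%) in C258A cells, still below the score-matched 65.4% and 80.8%. Compared with other members of their score, the isolated sites called after the knockdown were thus called more often with WX-02-23 in parental cells. In the engineered lines they were called less often, with or without doxycycline.

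This pattern was not particular to isolated peaks. Non-isolated peaks called with siFOXA1 were called at 98.2% with WX-02-23, against 83.5% of score-matched non-isolated peaks. In WT cells with doxycycline and DMSO they were called at 20.9%, against 72.5%. Only 7 of the 185 were called in all 11 other lists. The 3 strongest of the 185, by score and then genome order, belonged to these 7 and all scored 3100, at chr8:144136601-144138148, chr13:25807180-25808829 and chr16:69943196-69945045. Their siFOXA1 scores were 263, 94.6 and 163, at percentiles of 82.7, 10.7 and 64.3 within that list.

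**Figure D5:**
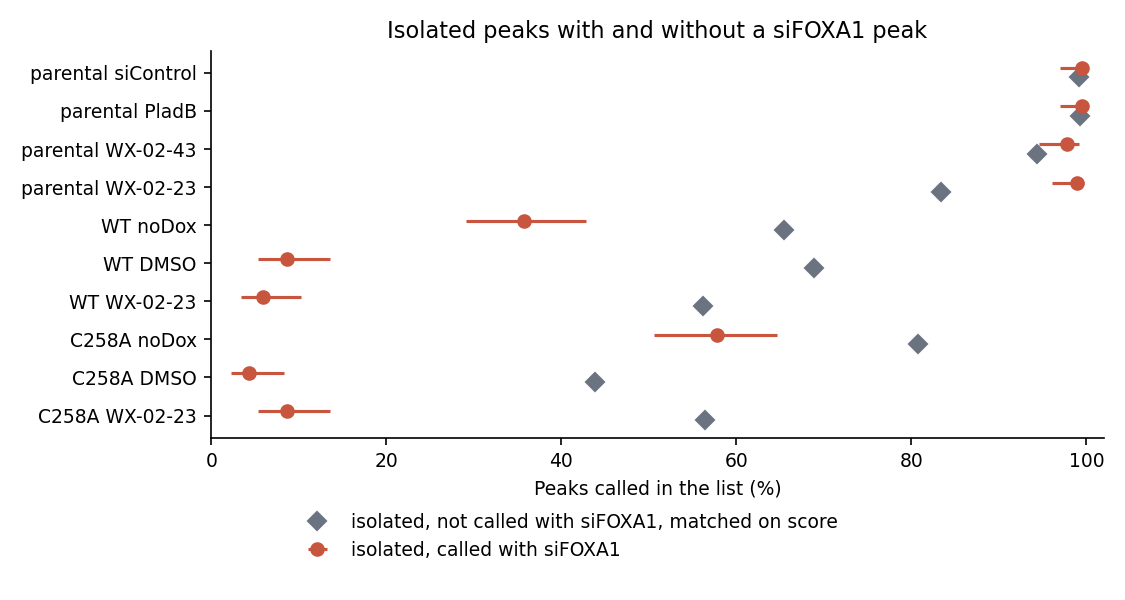
Percentage of the 185 isolated peaks called with siFOXA1 (orange, Wilson 95% intervals) that were called in each of the other 10 lists, beside isolated peaks not called with siFOXA1 and weighted to the same scores (grey diamonds). The groups lie together with siControl and PladB, and the orange points lie to the right with WX-02-23 in parental cells (98.9% against 83.4%). In the engineered lines the orange points lie to the left, farthest after doxycycline.

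In the engineered lines without doxycycline, isolated peaks were called like score-matched peaks. In WT cells 747 were (24.4%, 22.9 to 25.9%), where 26.7% of all autosomal DMSO peaks were, a difference from score-matched peaks of -0.734 points (-2.07 to 0.605). In C258A cells 1136 were (37.1%, 35.4 to 38.8%), where 38.3% of all were, a difference of 0.417 points (-1.06 to 1.89). Strong isolated peaks were already called less often in WT cells without doxycycline. Within the highest score quintile the share there was 66.9% (62.9 to 70.7%), against 74.5% (73.3 to 75.6%) of non-isolated peaks. In C258A cells without doxycycline these shares were 85.8% (82.7 to 88.5%) and 87.5% (86.5 to 88.3%). With doxycycline and DMSO, 1011 were called in WT cells (33.0%, 31.4 to 34.7%), where 37.0% of all were. Here the difference was -3.01 points (-4.65 to -1.36), and it was below 0 on 15 of the 22 autosomes. In C258A cells 470 were called (15.3%, 14.1 to 16.7%), where 17.6% of all were, with a difference of -0.980 points (-2.21 to 0.250).

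With doxycycline and WX-02-23, 795 isolated peaks were called in WT cells (25.9%, 24.4 to 27.5%), where 29.1% of all were, and the difference was -2.13 points (-3.67 to -0.585). In C258A cells 715 were called (23.3%, 21.9 to 24.9%), where 26.0% of all were, and the difference was -1.43 points (-2.89 to 0.0233). The shortfall lay among strong peaks: in the highest score quintile, 61.4% (57.2 to 65.4%) of isolated and 74.7% (73.5 to 75.8%) of non-isolated peaks were called in WT cells with doxycycline and DMSO. The corresponding shares were 52.8% and 62.8% in C258A cells with WX-02-23, a difference of -1.43 points with a reciprocal overlap of 50%. Scores were not matched within this quintile, and isolated peaks made up 10.1% of its lower decile and 8.37% of its upper one. How much of these gaps goes with score was not tested. Over all members, the interval for C258A cells with WX-02-23 lay below 0 in 6 of 11 alternatives, and that for WT cells with WX-02-23 included 0 in 3 of 11. With peaks called with siFOXA1 left out, an alternative added after the data were seen, the difference in WT cells with DMSO was -0.956 points (-2.61 to 0.699). With WX-02-23 it was -0.360 in WT and 0.233 in C258A cells. In the highest score quintile, leaving them out took the WT difference with DMSO from -13.3 to -3.38 points (-7.56 to 0.802). Over all members it was -0.671 points (-1.79 to 0.452) at equal list length and -6.77 (-10.1 to -3.47) for members isolated by 200 kb.

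Induction and WX-02-23 were also followed from the list before to the list after. Of the 747 isolated peaks called in WT cells without doxycycline, 516 (69.1%, 65.7 to 72.3%) were called with it, against 74.2% of score-matched peaks, a difference of -5.09 points (-8.46 to -1.72). Of 1136 in C258A cells, 374 (32.9%, 30.3 to 35.7%) were, against 35.1%. Of the 1011 called in WT cells with doxycycline and DMSO, 679 (67.2%, 64.2 to 70.0%) were called with WX-02-23, against 66.6%. Of 470 in C258A cells, 431 (91.7%, 88.9 to 93.9%) were, against 91.8%. The differences in retention under WX-02-23 between isolated and score-matched sites were within counting error, at 0.601 points (-2.39 to 3.59) for the WT line and -0.127 (-2.76 to 2.51) for the C258A line.

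Isolation itself was then looked up in the other lists, by asking whether another library held a peak within 100 kb of a member other than one that overlapped it. The stretch around a member is free of DMSO peaks by the rule, so lists close to the DMSO list start low. With siControl 1084 members (35.4%) had such a peak and with PladB 962 (31.4%). With WX-02-43 190 (6.20%, 5.40 to 7.11%) had one, and with WX-02-23, a list of similar length, 438 (14.3%, 13.1 to 15.6%). Peaks next to isolated sites were thus more common with WX-02-23 than with WX-02-43. This was not shown to be particular to them, since the same share was not computed for non-isolated peaks. On the autosomes the WX-02-23 list held 16601 peaks and overlapped 13924 DMSO peaks, and the WX-02-43 list held 17561 and overlapped 16356. The WX-02-23 list thus overlapped fewer DMSO peaks for its length over all autosomes as well.

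After induction more members had a peak nearby, and the lists were longer, most of all in WT cells. Without doxycycline 63 members (2.06%) had a peak nearby in WT cells, a list of 8575 peaks, and 156 (5.09%) in C258A cells, a list of 12752. With doxycycline and DMSO 1845 (60.2%, 58.5 to 61.9%) had one in WT cells, a list of 31735 peaks and so shorter than that of PladB or siControl, and 1074 (35.1%, 33.4 to 36.8%) in C258A cells, a list of 13299 peaks. The nearest such peak in WT cells lay at a median distance of 28.7 kb. Of the 1011 members called there, 289 (28.6%) still stood alone, and of the 2053 that were not called, 1123 (54.7%) had a peak within 100 kb. Many isolated sites thus had a called peak around them in this list without one at the site itself. This was not shown to be particular to isolated sites, since the same share was not computed for other peaks. On the autosomes this list held 31022 peaks and overlapped 10924 DMSO peaks, and the PladB list held 32020 and overlapped 26052. The WT list thus overlapped far fewer DMSO peaks for its length over all autosomes as well.

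Applied to each list by itself, the same rule found between 1504 isolated peaks with siFOXA1 and 4112 with WX-02-43, and the number depended on list length. At 8575 peaks per list, the isolated share of autosomal peaks was 45.6% with DMSO, 47.2% with siControl, 45.8% with PladB, 46.1% with WX-02-43 and 46.4% with WX-02-23. It was 44.2% and 43.6% in WT and C258A cells without doxycycline. With doxycycline it was 37.2% in WT and 37.6% in C258A cells with DMSO, and 38.7% and 37.4% with WX-02-23. The 4 lists from induced cells were thus the least scattered at equal length, and the 5 parental lists without the knockdown, which was too short for this comparison, the most. Of the 3064 members, 1530 (49.9%) had no neighbour within 100 kb in the other 4 parental lists without the knockdown, and 481 (15.7%) had none in any of the 11 other lists.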

How the data were processed

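FOXA1 peak lists of 12 libraries were used. ThruPLEX libraries were made from formaldehyde-fixed chromatin, per the labels' protocols. The submitters' processing notes name bcl2fastq, Bowtie2 and the hg19 build, without roles, and the peak names deposited by the authors begin with MACS. Caller version, thresholds and control library are not given in the sources used here. The deposited files give start, end and a peak score for each peak, 1 list per library, and the definition of the score is not stated. Read depth is unknown, and the number of peaks limits precision.

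Members, groups of peaks and comparisons were chosen with earlier results of these data known. Gaps, overlaps and score-weighted shares were computed with Python 3.11.15, numpy 2.4.6, pandas 2.3.3 and scipy 1.17.1. A shared peak overlapped by at least 1 bp. Intervals are Wilson 95% intervals for shares and stratified normal 95% intervals for differences over 20 score bins. The code was tested on simulated lists with known answers. Named peaks are the 5 strongest members, the 3 most remote, and the 3 strongest among those called with siFOXA1, missing with WX-02-23 alone, missing with WX-02-43 alone, and called in the fewest lists, with the 3 peaks on each side of the 100 kb threshold. No hg19 genome or annotation was used, so sequences, motifs and genes are not reported. Alternatives covered distance, overlap, matching and list length.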

Additional observations from a re-analysis of the deposited data

Results flagged for a closer look

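Under the same contrast, WX-02-23 against DMSO with doxycycline, the share of isolated peaks called fell in one engineered line and rose in the other. It changed by -7.05 points in WT cells (95% counting interval -8.38 to -5.72), from 33.0% to 25.9%, and by 8.0 points in C258A cells (6.88 to 9.11), from 15.3% to 23.3%. Over all autosomal DMSO peaks the change was -7.91 points in WT and 8.43 in C258A cells, so it was close to that of the isolated peaks and is not particular to them. The difference between the lines was not tested, since each condition had 1 library. The WT list went from 31735 to 25849 peaks and the C258A list from 13299 to 20609. At 8575 peaks per list the change was -2.45 points in WT cells, from 12.1% to 9.69%, and -0.163 in C258A cells, from 11.1% to 10.9%, so at equal length neither line showed a rise.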

How the results depend on the processing

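Of 209 alternative values of the main comparisons, 142 stayed within the interval of the main value (for counts of peaks, within 1.5 times), 66 moved further and 1, whose interval had lain on one side of 0, changed sign. With 10 score bins, bins within each chromosome, gaps of up to 500 bp or chromosome ends left out, none moved further. Staying within the interval did not always keep its side of 0: with siControl, PladB, WX-02-43 and WX-02-23 the interval of the difference lay above 0 in 5 of 10, 2 of 10, 3 of 11 and 1 of 11 alternatives. It lay below 0 in 3 of 11 for C258A DMSO and 6 of 11 for C258A WX-02-23, and included 0 in 2 of 11 for WT DMSO and 3 of 11 for WT WX-02-23. For siFOXA1 it lay above 0 in 9 of 9. The cause of the changes was not tested, except that shorter lists and stricter overlaps leave fewer calls by construction. The number of isolated peaks was 4081 when only the 50% highest-scoring DMSO peaks were used, 7993 at 50 kb, 653 at 200 kb and 1530 with neighbours also taken from 4 other parental lists.

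At 200 kb the share called was 90.4% with siControl, 48.1% with WX-02-23, 7.04% with siFOXA1, 28.9% in WT DMSO, and 33.7%, 13.5% and 21.7% in C258A noDox, DMSO and WX-02-23. The differences from score-matched peaks were 2.68, 2.59, 3.72, -6.77, -2.89 and -2.67 points for siControl, WX-02-23, siFOXA1, WT DMSO, C258A noDox and C258A DMSO. The change with WX-02-23 in WT cells was -4.44 points.

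With reciprocal overlap of 50% the shares were 87.2% (siControl), 87.2% (PladB), 53.2% (WX-02-43), 43.3% (WX-02-23) and 4.67% (siFOXA1). They were 12.7%, 30.8% and 20.1% in WT noDox, DMSO and WX-02-23, and 32.7%, 11.2% and 18.8% in the C258A lists. Differences were 2.13 (siControl), 2.50 (PladB), 1.20 (WT noDox) and 0.0640 points (C258A WX-02-23), and the WT change with WX-02-23 was -10.6.

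At equal list length the shares were 28.4% (siControl), 26.7% (PladB), 27.5% (WX-02-43), 26.6% (WX-02-23), 12.1% (WT DMSO), 9.69% (WT WX-02-23), 25.1% (C258A noDox), 11.1% (C258A DMSO) and 10.9% (C258A WX-02-23). The WT DMSO difference was -0.671, and the change with WX-02-23 was -2.45 in WT and -0.163 in C258A cells, the sign change counted above. The other values here that changed sign had intervals that included 0 before the change.

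Without matching, differences were -0.199 (WX-02-43), -1.05 (WX-02-23), -2.57 (WT noDox), -1.34 (C258A noDox), -2.48 (C258A DMSO) and -2.96 (C258A WX-02-23). With width also matched, the siFOXA1 difference was 2.10 points (1.33 to 2.88).

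The following were chosen after seeing the data. Without peaks called with siFOXA1, shares were 52.5% (WX-02-43) and 42.9% (WX-02-23), and differences -0.956 (WT DMSO), -0.360 (WT WX-02-23), 0.397 (C258A DMSO) and 0.233 (C258A WX-02-23). Among peaks called with both siControl and PladB, shares were 64.3% (WX-02-43), 53.3% (WX-02-23), 7.14% (siFOXA1), 28.7%, 36.3% and 28.5% (WT noDox, DMSO, WX-02-23) and 42.7%, 17.0% and 25.8% (the same in C258A). No paired analysis was possible because each group has 1 library. Read depth, which is unknown, limits all shares.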
